A study of Homo sapiens with 4 samples.

Results

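The adenosines described here carry G at both upstream positions and A, G or U, but never C, directly downstream. They are written GGAD, with D for A, G or U, and the adenosine is position 0, so that its downstream neighbour is at +1. They were found by reading the deposited sequence of each oligonucleotide from the third base to the third from the end, which gave 29840 GGAD adenosines among 374816 adenosines (7.96%) and 1643863 positions in all (1.82%). They lay in 10811 of the 11999 oligonucleotides, with a median of 2 and at most 16 in each, and came from 3553 of 3949 different sequences. By the base at +1, 9313 were GGAA, 14903 were GGAG and 5624 were GGAU. The 13194 GGAC adenosines, which share the upstream bases and have C at +1, served as the comparison. They lie at other places, in 8019 oligonucleotides, so the sequence around them differs too.

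N6-methyladenosine (m6A) is the most common internal modification of messenger RNA. METTL3 is the subunit that transfers the methyl group, and METTL14 helps to hold the RNA. Methylated adenosines of cells lie mostly in the DRACH consensus, in which C follows the adenosine. DRACN, used here, leaves the last base free. In miCLIP2 an antibody against m6A is crosslinked to RNA by ultraviolet light, and reverse transcription tends to stop at the crosslink, so that counts mark single nucleotides. The antibody also leaves counts on unmethylated RNA, and those are the background against which a gain is read.

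The pool was RNA made by in vitro transcription from human transcript loci, mostly as 3 oligonucleotides per sequence that differed in a tag. The methylated group had been incubated with recombinant METTL3–METTL14 and the unmethylated group had not, and each group had 2 libraries. The RNA was naked, so no cell, reader, eraser or other methyltransferase acted on it, and the measured quantity was antibody crosslinking rather than the share of methylated molecules. The series states that experiments were done in duplicate, and nothing in the labels says that duplicates were separate methylation reactions, so p-values measure only the spread between these libraries, which may be technical.

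The sequences below surround the single GGAD adenosines on which the site results turn, with the GGAD bases in capitals and U written as T, as in the deposited table. All are given 5′ to 3′ on the transcript. A coordinate is that of the adenosine at position 51 of the same oligonucleotide, on GRCh38 and counted from 1, and the place is the position of the GGAD adenosine in the oligonucleotide. The first 5 have G at +2 and U at +3, and the next 3 do not. The last 2 are places called lower in at least 1 oligonucleotide, although another oligonucleotide of the CDKN1A place was called higher.
PDS5A, chr4:39977503, place 96: cccgcatgaggaGGAGgtaaaggcggcgg
PPM1D, chr17:60623695, place 104: aaggacttggtgGGAGgtaacattctgtc
SRRT, chr7:100888059, place 134: atcttgggctatGGAGgtaagt
Locus without a single gene name, chr22:20442077, place 3: GGAGgtgatgagtgtgt
Locus without a single gene name, chr22:26491921, place 101: gtcatgagggaaGGATgtaaaatgggaca
DDB1, chr11:61322321, place 99: cattctgaaagtGGATagttggtatatgc
BRD2, chr6:32980902, place 85: cagccccattggGGAGtgatctcttggac
WNT11, chr11:76187019, place 93: gagacactccatGGAGctctgcttgtgaa
CDKN1A, chr6:36687012, place 124: cgttgagcccctGGAGgcactgaagtgct
DLX1, chr2:172085985, place 117: agagggaaagaaGGAGcgggggagaagag

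Library totals were 13110615 and 13265092 counts in the methylated libraries, against 10483825 and 12028474 in the unmethylated ones. The median oligonucleotide had 179 and 215 counts in the methylated libraries, against 167 and 156 in the unmethylated ones. Single positions were therefore thinly covered: 10767 GGAD adenosines (36.1%) had no count in any library, and 4655 (15.6%) reached 10 counts in at least 2 libraries and could be tested one by one, against 11.7% of all positions. Values are given below as CPM, in which counts are scaled to the same total in every library. Some are also given relative to the total of the oligonucleotide in the same library. That total is itself a sum of crosslink counts, any gain at its methylated sites included, and not a measured amount of RNA. The 2 libraries of a group were not copies of each other: a chi-square test of their oligonucleotide totals gave a statistic of 18.7 per degree of freedom in the methylated group and 20.7 in the unmethylated group. Each library was counted as 1 sample.

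The first comparison asked whether the C at +1 is needed for a gain in signal after incubation with the enzyme. Summed over all members, GGAD adenosines held 22248 and 21509.8 CPM in the methylated libraries, against 23732 and 24185 CPM in the unmethylated libraries. GGAC adenosines held 19989 and 19437 CPM in the methylated libraries, against 5237 and 5749 CPM in the unmethylated ones. The groups were apart for both kinds of adenosine, with the methylated libraries slightly lower for GGAD and far higher for GGAC. The pooled ratio of methylated over unmethylated was 0.913 for GGAD (0.889 to 0.937 over the 4 pairs of libraries) and 3.59 for GGAC (3.38 to 3.82).

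The small GGAD difference was absent once counts were set against oligonucleotide totals. Relative to oligonucleotide totals, the GGAD ratio was 1.01 (0.995 to 1.02), while that of GGAC was 3.17 (3.03 to 3.31). Per adenosine, GGAD averaged 0.733 CPM in the methylated libraries and 0.803 CPM in the unmethylated ones, and GGAC averaged 1.49 CPM in the methylated libraries and 0.416 CPM in the unmethylated ones. The 255051 other adenosines without C at +1 averaged 0.560 CPM in the methylated libraries and 0.584 CPM in the unmethylated ones. On unmethylated RNA, GGAD thus had more counts per adenosine than both GGAC and the other adenosines without C at +1.

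By the base at +1, none of the 3 GGAD sums passed the edgeR test below, in which the smallest unadjusted p was 0.142. GGAA held 4478 and 4577 CPM in the methylated libraries, against 4978 and 4721 CPM in the unmethylated ones. GGAG held 12434 and 11625 CPM in the methylated libraries, against 12877 and 14091 CPM in the unmethylated ones. GGAU held 5336 and 5308 CPM in the methylated libraries, against 5877 and 5374 CPM in the unmethylated ones. In all 3 cases the lower unmethylated library lay above the higher methylated one.

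In that fit over the sums of all 4-mers (bases -2 to +1), the log2 fold change was -0.07 for GGAA (95% interval -0.20 to 0.07, adjusted p = 0.570), -0.13 for GGAG (-0.31 to 0.04, adjusted p = 0.376) and -0.05 for GGAU (-0.19 to 0.09, adjusted p = 0.718). As ratios, these intervals reached up to 1.05, 1.03 and 1.07. In the same fit relative to oligonucleotide totals, they reached up to 1.08 for GGAA, 1.10 for GGAG and 1.03 for GGAU. These limits bound a pooled gain only within the spread between these libraries. GGAC rose by 1.88 ± 0.09 (SE, adjusted p = 1.68e-65). Of all 4-mer sums, 8.59% were called higher and 3.91% lower. Among the 45 other 4-mers with A, G or U at +1, 1 was called higher and 2 lower, with changes between -0.30 (AAAU) and 0.23 (AUAG). Among the 16 with C at +1, 13 were called higher, and their median was 0.44.

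**Figure D1:**
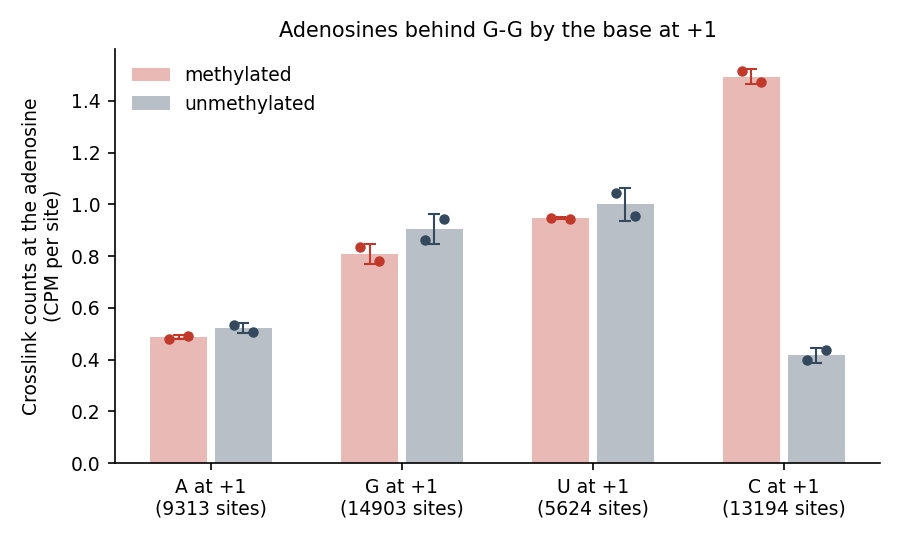
CPM per adenosine (y axis) for G-G upstream adenosines by the base at +1, with methylated libraries left of unmethylated ones. Bars are means, error bars are SD over 2 libraries and points are libraries. The GGAC pair is the one in which the groups stand far apart, at 1.49 CPM in methylated and 0.416 CPM in unmethylated libraries.

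The difference between GGAD and GGAC was also taken within each library, where a change in depth cancels. The log2 ratio of GGAD over GGAC counts was 0.15 and 0.15 in the methylated libraries, against 2.18 and 2.07 in the unmethylated ones, a difference of -1.98. An exact permutation test over the 4 libraries gave a two-sided p of 0.333, the smallest that 2 against 2 allows. In the 7272 oligonucleotides that held both kinds, GGAD had a ratio of 0.910 (0.884 to 0.937) and GGAC a ratio of 3.46 (3.26 to 3.68). Relative to the totals of those oligonucleotides, GGAD ranged from 0.985 to 1.01 and GGAC from 2.97 to 3.25.

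The base at +2 was then added. Of the 12 GGADN 5-mers, only GGAUU was called in the fit over all 5-mer sums, in which 6.54% were called higher and 4.88% lower. GGAUU held 671 and 680 CPM in the methylated libraries, against 550 and 527 CPM in the unmethylated ones, and its log2 fold change was 0.35 ± 0.08 (SE, adjusted p = 0.00809). The methylated libraries were both above the unmethylated ones, by a ratio of 1.25. The change was 0.20 (adjusted p = 0.122) when each sum was set against the totals of its oligonucleotides.

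The GGAUU counts were concentrated in few sequences. The PMS2 sequence, from a mismatch repair gene, held 15.7% of them and that of its relative PMS2CL held 9.94%. These sequences differ by 7 bases, so reads could have been assigned to either. VMA22 followed with 6.90% and USP20, which encodes a deubiquitinase, with 4.33%. Without the 3 leading sequences the change of GGAUU was 0.28 (adjusted p = 0.0514), so the call was lost there too.

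The other 11 GGADN 5-mers ranged from -0.23 for GGAGG (adjusted p = 0.234) and -0.22 for GGAAA (adjusted p = 0.0959) to 0.13 for GGAUA. The 4 GGACN 5-mers ranged from 1.75 (GGACC) to 2.07 (GGACA). Every pooled ratio of a GGACN 5-mer, relative to oligonucleotide totals, lay between 2.94 and 3.63, and those of the 12 GGADN 5-mers lay between 0.935 (GGAAU) and 1.11 (GGAUU). No base at +2 brought a GGAD sum near a GGAC sum.

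**Figure D2:**
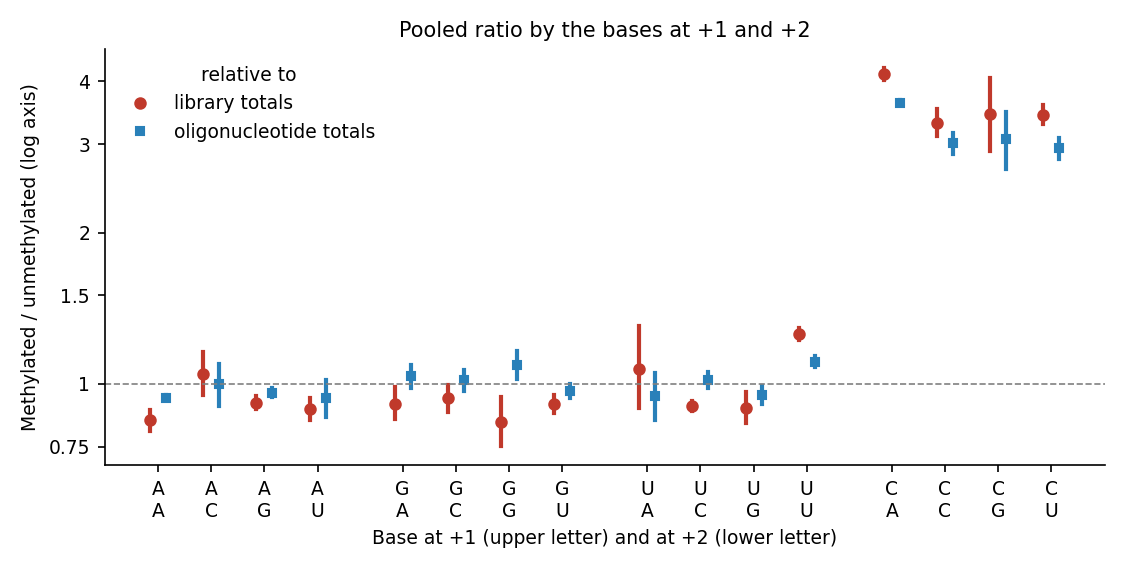
Pooled ratio of methylated over unmethylated counts (y axis, log scale) for the 16 combinations of bases at +1 and +2 after G-G-A. Circles are relative to library totals and squares to oligonucleotide totals, and bars run from the lowest to the highest of the 4 library pairs. The 12 combinations without C at +1 lie near 1, with GGAUU at 1.25 relative to library totals, and the 4 with C lie above 2.9.

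A member could also carry signal from a DRACN adenosine beside it, so members were separated by the distance to the nearest one. The 16657 GGAD adenosines with no DRACN adenosine within 10 nt had a pooled ratio of 0.876 ± 0.0274 (SD over the libraries), and the 13183 with one had 0.977 (0.958 to 0.996). Relative to oligonucleotide totals both kinds were near 1, at 0.998 to 1.02 and 0.991 to 1.03 over the library pairs. By single distances the ratio relative to oligonucleotide totals ran from 0.935 to 1.15, in no steady order with distance.

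GGAAC gave the closest such pair, because its first adenosine is a member and its second has C at +1. In 2048 of them the first adenosine had 1197 and 1285 CPM in the methylated libraries, against 1262 and 1110.12 CPM in the unmethylated ones. The second had 1361 and 1347 CPM in the methylated libraries, against 605 and 583 CPM in the unmethylated ones. The groups overlapped at the first adenosine (ratio 1.05) and stood apart at the second (ratio 2.28), 1 nt away.

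Around isolated members the ratio of methylated over unmethylated counts was not highest at the adenosine. In windows of 8 nt to each side, relative to library totals, the ratio was 0.850 at the adenosine of GGAA and 0.783 to 0.957 over its window. For GGAG it was 0.851 at the adenosine and 0.776 to 0.952 over the window, and for GGAU 0.946 and 0.843 to 1.08. GGAC reached 3.43 at the adenosine and 1.63 at the position before it, with the other positions between 1.01 and 1.27.

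**Figure D3:**
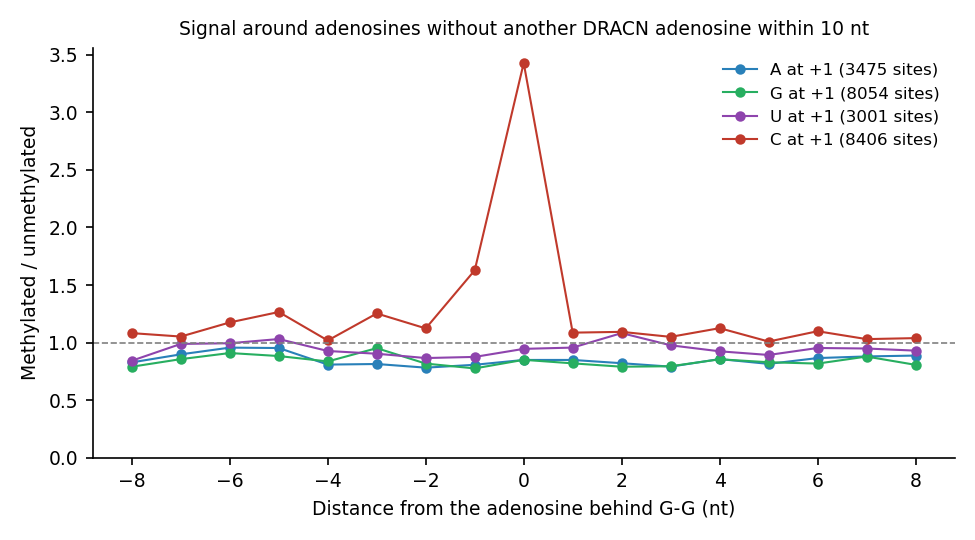
Ratio of methylated over unmethylated counts (y axis) at each distance from the adenosine (x axis, nt), for isolated adenosines after G-G by the base at +1. GGAC peaks at 3.43 at distance 0, while the GGAA, GGAG and GGAU lines stay between 0.776 and 1.08.

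Relative to oligonucleotide totals, members with G at +2 and U at +3 had a higher ratio. This split was made after the bases behind the called single sites had been seen. Where G was at +2 and U at +3, as in the first 5 sequences above, the 1792 adenosines held 1139.5 and 1081 CPM in the methylated libraries, against 973 and 939 CPM in the unmethylated ones. The methylated libraries were both higher, by a ratio of 1.16 relative to library totals and 1.29 (1.24 to 1.35) relative to oligonucleotide totals. For the other 15 base pairs at +2 and +3 the ratio relative to oligonucleotide totals ran from 0.923 (C then G) to 1.08 (A then U). Relative to library totals it ran from 0.771 (G then C) to 1.17 (U then U, 1.04 to 1.31), so G then U did not stand out there. GGAD without G at +2 and U at +3 had 0.997 (0.984 to 1.01).

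Without G-G upstream, adenosines with these downstream bases had a ratio near 1, and the difference was not tested. The 14438 other adenosines that had A, G or U at +1, G at +2 and U at +3 had a ratio of 0.976 (0.952 to 1.00) relative to oligonucleotide totals. Within GGAD followed by G and U, the ratio was 1.42 (1.38 to 1.46) with G at +1, 1.20 (1.12 to 1.28) with A and 1.18 (1.07 to 1.30) with U. It was 1.34 (1.24 to 1.44) for isolated adenosines and 1.19 (1.09 to 1.31) for those with a DRACN adenosine nearby. Around the isolated ones it was 1.32 at the adenosine and between 0.835 and 1.00 at the 3 positions on each side.

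In a fit over all 4096 sums by 6-mer (bases -2 to +3) relative to oligonucleotide totals, 3.56% were called higher and 1.46% lower. GGAGGU had 7706 and 7452 counts in the methylated libraries, against 5203 and 5814 in the unmethylated ones. It rose by 0.44 ± 0.09 on the log2 scale (SE, adjusted p = 0.00675), which is a ratio of 1.36 (95% interval 1.19 to 1.55). The 6-mer fit was chosen after the bases behind the called sites had been seen. The GGAGGU sum still holds such sites, so its p-value is not an independent test of these bases. GGAAGU had 0.25 (adjusted p = 0.209) and GGAUGU 0.23 (adjusted p = 0.270), and GGACGU, with C at +1, had 2.00. GGAGGU was the 1 GGAD 6-mer of 48 that rose and GGAACG the 1 that fell, at -0.49 (adjusted p = 0.0367).

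The GGAGGU call was lost in 2 settings. Relative to library totals its change was 0.24 (adjusted p = 0.218), and without methylated replicate 1 it was 0.41 (adjusted p = 0.0649). Without the 5 places that held the most counts it was 0.50 (adjusted p = 0.00264). In the fit relative to library totals, in which 5.32% of 6-mers were called higher and 3.34% lower, the GGAD 6-mers called higher were GGAUAU (0.94), GGAUCU (0.43), GGAUUC (0.37) and GGAUUU (0.71), and GGAUCC was called lower (-0.44).

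These adenosines were also split by the bases at +4 and +5, after the called sites had been seen, and differences between the splits were not tested. Relative to oligonucleotide totals, the ratio was 3.59 (3.24 to 3.94) for A then A and 1.90 (1.81 to 1.98) for G then A, and between 0.606 and 1.35 for the other pairs. The first value rested largely on 1 place: of 90 adenosines in 29 sequences, the PDS5A place held 63.4% of the counts, and without it the ratio was 1.86 (1.64 to 2.10). What remains still holds the PPM1D, SRRT and chr22:26491921 places, which are among the called sites. The ratio is thus not independent of the sites that led to the split.

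**Figure D4:**
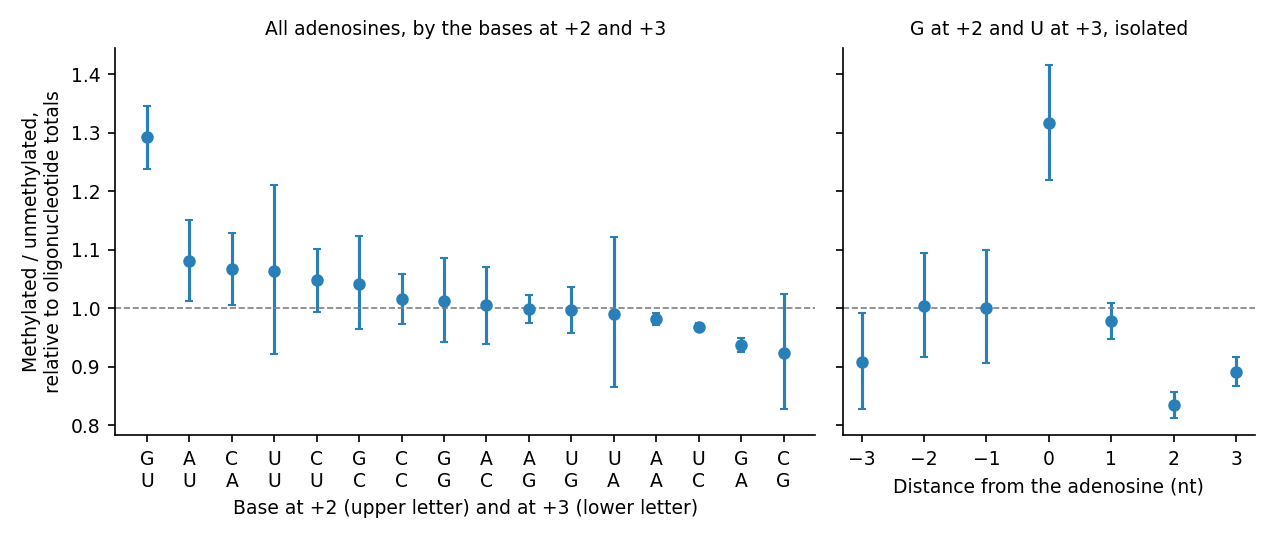
Ratio of methylated over unmethylated counts relative to oligonucleotide totals (y axis), by the bases at +2 and +3 of GGAD (left) and by distance in nt from isolated GGAD adenosines with G at +2 and U at +3 (right). Points are means and bars run from the lowest to the highest of 4 library pairs. G then U stands at 1.29 on the left, and distance 0 at 1.32 on the right.

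Single adenosines were tested over all 192065 positions that passed the count filter, of which 3.8% were called higher and 1.84% lower. Of the 4655 GGAD adenosines tested, 133 were higher (2.86%) and 190 lower (4.08%). Among 29427 other adenosines without C at +1, 570 were higher (1.94%) and 631 lower (2.14%). Of 2685 GGAC adenosines, 1529 were higher (56.9%) and 4 lower. The share of GGAD adenosines called higher was thus under that of all positions, and the share called lower was above it.

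Without methylated replicate 1, 66 GGAD adenosines were higher and 105 lower, and without methylated replicate 2, 111 were higher and 124 lower. With the differently tagged oligonucleotides of a sequence added together, 94 of 3221 GGAD places were higher and 140 lower, against 3.71% and 2.01% of all places.

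Both kinds of call moved with the total counts of the oligonucleotide, whose part in the single calls was not tested beyond the fit relative to that total. The total of the oligonucleotide was higher in the methylated libraries behind 126 of the 133 rises (median ratio 1.72) and lower behind 188 of the 190 falls (median ratio 0.348), while over all tested members the median ratio was 0.954. The 190 falls lay in 69 sequences, and 113 of the 166 that had a tested position 1 nt away had such a position called lower too. The 133 rises lay in 99 sequences, and 40 of the 111 with a tested position 1 nt away had one called higher too. The matching share over all positions was not taken. Relative to oligonucleotide totals, 50 GGAD adenosines were higher (1.07%) and 17 lower (0.365%), against 1.59% and 0.299% of all positions, GGAC included. Of the GGAD calls in that fit, 39 higher and 10 lower had been called the same way on library totals. Among other adenosines without C at +1, 83 were higher (0.282%) and 108 lower (0.367%) in that fit.

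**Figure D5:**
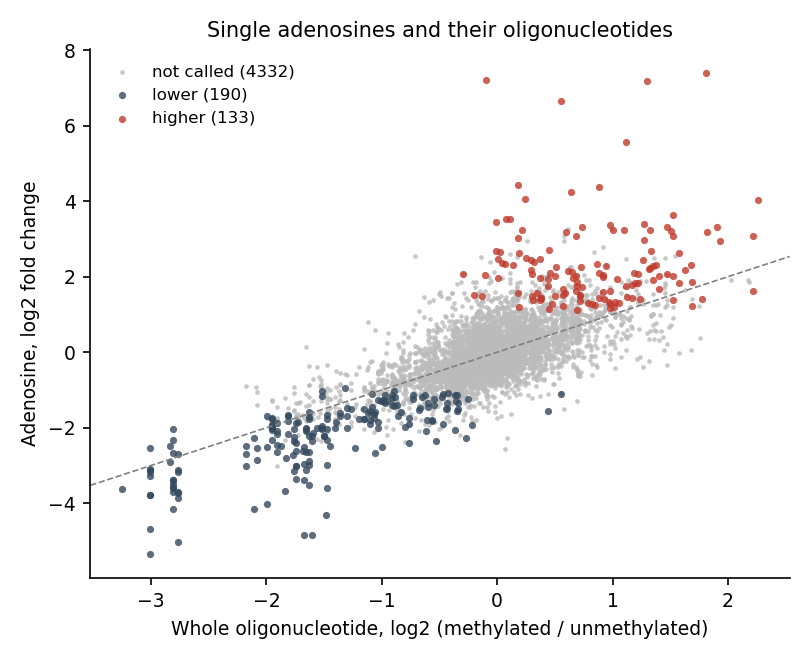
Log2 fold change of each of 4655 tested GGAD adenosines (y axis) against the log2 ratio of methylated over unmethylated totals of its oligonucleotide (x axis). The dashed line marks equality. The 190 lower calls lie mostly at low oligonucleotide ratios, and the 133 higher calls mostly at ratios above 0 on this log2 axis, with some far above the line.

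The called members were richer in G at +2 and U at +3 than the tested ones, which is how that split was found. These bases followed 246 of the 4655 tested members (5.28%) and 20 of the 50 that were higher relative to oligonucleotide totals. Among other adenosines without C at +1, they followed 1664 of 29427 tested (5.65%) and 9 of 83 that were higher in the same way (10.8%).

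The PDS5A place, from a gene whose protein regulates the cohesin ring, had the most counts of these. It was singled out after its values were seen. In its oligonucleotide with the most counts it had 770 and 885 counts in the methylated libraries, against 90 and 166 in the unmethylated ones. In a second it had 14 and 17 counts in the methylated libraries, against 0 and 3 in the unmethylated ones (edgeR adjusted p = 0.0472). Relative to its oligonucleotide total that second value was not called (2.87, adjusted p = 0.117). In the third it was too thin to test, with 9 and 7 counts in the methylated libraries, against 7 and 2 in the unmethylated ones. The groups did not overlap in either tested oligonucleotide. The log2 fold change of the first was 2.46 (adjusted p = 2.30e-05) and 2.49 relative to the oligonucleotide total (adjusted p = 2.36e-07), and the nearest DRACN adenosine lay 45 nt upstream.

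On library totals, 14 of 2565 tested places were called higher in at least 2 of their oligonucleotides. In the fit relative to oligonucleotide totals 4 places were, and the 3 described here were named for that after their values were seen. Only places with several tested oligonucleotides could be counted so, and 796 had 2 tested and 618 had 3. The matching share over all positions was not taken, so these counts have no background beside them. The first of the 3 described places was place 3 of the chr22:20442077 locus, with 182 and 182 counts in the methylated libraries, against 10 and 6 in the unmethylated ones, in 1 oligonucleotide. Its log2 fold changes in the 3 oligonucleotides were 4.24, 2.71 and 2.43, all called. This adenosine lies at the very start of the measured positions.

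The DDB1 place, in an adaptor of a ubiquitin ligase, has A at +2 in place of G. It had 109 and 126 counts in the methylated libraries, against 8 and 9 in the unmethylated ones, in 1 oligonucleotide. In a second it had 37 and 24 counts in the methylated libraries, against 3 and 2 in the unmethylated ones. The groups were apart in both, with log2 fold changes of 3.52 (SE 0.42, adjusted p = 8.31e-06) and 3.30 (adjusted p = 0.00258). In the third oligonucleotide the change was 1.24 (adjusted p = 0.403). The total of the first oligonucleotide hardly differed, with a ratio of 1.05, and the nearest DRACN adenosine lay 23 nt downstream.

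PPM1D encodes a phosphatase of the p53 response. Its place had 28 and 17 counts in the methylated libraries and none in either unmethylated library, which is at least 6.38-fold higher against a floor of 3 counts per library (adjusted p = 7.09e-04). In a second oligonucleotide it had 44 and 25 counts in the methylated libraries, against 1 and 0 in the unmethylated ones (adjusted p = 2.41e-04). The oligonucleotide total behind the first value was itself 3.51 times as high in the methylated libraries, and a DRACN adenosine lay 5 nt downstream.

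The other largest rises from no unmethylated count were in BRD2, SRRT and a locus without a single gene name. Like the PPM1D values above, they passed the count filter only through the methylated libraries, where they are high. Their p-values carry that selection. BRD2 encodes a bromodomain protein that binds acetylated histones, and its place had 22 and 18 counts in the methylated libraries and none in the unmethylated ones (at least 5.67-fold higher, adjusted p = 0.00109). In a second BRD2 oligonucleotide the place had 13 and 12 counts in the methylated libraries, against 2 and 6 in the unmethylated ones, which did not pass (adjusted p = 0.334). Place 101 of the chr22:26491921 locus had 18 and 21 counts in the methylated libraries and none in the unmethylated ones (at least 5.52-fold higher, adjusted p = 0.00124). A second oligonucleotide of that place had a log2 fold change of 4.04 (adjusted p = 5.80e-05), but its total was itself 4.79 times as high in the methylated libraries, and relative to it the change was 1.84 (adjusted p = 0.115). SRRT encodes a partner of the nuclear cap-binding complex, and its place had 12 and 15 counts in the methylated libraries and none in the unmethylated ones (at least 3.82-fold higher). That call was lost without methylated replicate 1 (adjusted p = 0.0861) or methylated replicate 2 (adjusted p = 0.150).

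The WNT11 place, in a gene for a secreted Wnt ligand, had 264 and 238 counts in the methylated libraries, against 13 and 21 in the unmethylated ones, in 1 of 3 oligonucleotides. The groups were far apart there (log2 fold change 3.64, SE 0.37, adjusted p = 9.71e-07). The total of that oligonucleotide was itself 2.88 times as high in the methylated libraries, and relative to it the change was 2.12 (adjusted p = 1.76e-04). The other oligonucleotides of that sequence had 0.53 (adjusted p = 0.383) and 0.27 (adjusted p = 0.853). The same sequence with another tag thus gave a smaller value that did not pass, and whether the values differ between tags was not tested.

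Among the remaining named rises, CLSTN3 had a log2 fold change of 3.32, TTI1 3.45, ARHGAP35 3.39 and MDH2 3.36, all with at most 35 counts in any library. In the fit relative to oligonucleotide totals TTI1 had 3.44 (adjusted p = 0.0112), while the calls of CLSTN3 (1.48, adjusted p = 0.364), ARHGAP35 (2.20, adjusted p = 0.253) and MDH2 (2.47, adjusted p = 0.287) were lost. In the other tested oligonucleotides the log2 fold change was -0.36 and -0.19 at the CLSTN3 place and -0.30 at the MDH2 place, none of them called. The MDH2 call was lost on leaving out any 1 of the 4 libraries (adjusted p 0.0736 to 0.416). Those of TTI1 (adjusted p = 0.432) and ARHGAP35 (adjusted p = 0.431) were lost without methylated replicate 2. CREBZF and USP20 were named as the best covered called GGAUA and GGAUU places. CREBZF, which encodes a transcription regulator, had a log2 fold change of 2.04, and USP20 had 1.36. Relative to oligonucleotide totals, CREBZF kept 1.15 (adjusted p = 0.0109) and USP20 had 0.65 (adjusted p = 0.248).

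Among falls with at least 1 count in each methylated library, 3 of the 4 largest were those of DLX1, a homeobox gene, at 3 places of 1 sequence. At place 117 it had 1 and 4 counts in the methylated libraries, against 88 and 91 in the unmethylated ones (log2 fold change -5.34, adjusted p = 7.77e-07). Places 90 and 101 had -4.67 and -4.15, and all 3 places were called lower in each of 3 oligonucleotides. The oligonucleotide that held place 117 had itself a total ratio of 0.125, so that relative to it the change was -2.38 (adjusted p = 0.0272). Each of the 3 places was called in 1 of its 3 oligonucleotides relative to their totals, with -1.68 (adjusted p = 0.0143) at place 90 and -1.33 (adjusted p = 8.69e-04) at place 101. NAB2, a corepressor of EGR factors, had -4.02, and -2.03 relative to its oligonucleotide total (adjusted p = 0.0539).

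The called member with the most counts lay in CDKN1A, which encodes the cell cycle inhibitor p21, and its oligonucleotides disagreed. In the first it had 4646 and 4519 counts in the methylated libraries, against 6056 and 12924 in the unmethylated ones (log2 fold change -1.27, adjusted p = 0.0111). In the second it had 179 and 175 counts in the methylated libraries, against 30 and 41 in the unmethylated ones (2.07, adjusted p = 4.05e-04). In the third it had 2012 and 2770 counts in the methylated libraries, against 3640 and 4170 in the unmethylated ones (-0.96, adjusted p = 0.0377). This was the 1 place of 618 with 3 tested oligonucleotides that was called in both directions. The fall of the first was lost without methylated replicate 2 (adjusted p = 0.0540) or unmethylated replicate 2 (adjusted p = 0.0818), and was -0.19 relative to the oligonucleotide total (adjusted p = 0.717).

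The best covered called places of the other 5-mers were lower as well. ARMC5 had -2.64, PLOD1, a collagen lysyl hydroxylase, -2.03, CNDP2, a dipeptidase, -1.60, SAFB, a nuclear scaffold protein, -1.30 and COX7A2L, a factor of respiratory supercomplexes, -1.14. The unnamed loci chr2:109615604, chr1:944349 and chr12:79690223 had -1.25, -1.19 and -1.14. Their oligonucleotide totals had ratios between 0.267 (ARMC5) and 0.839 (chr2:109615604). Relative to those totals, only chr2:109615604 was still called (-0.99, adjusted p = 0.0451). SAFB and ARMC5 were called lower in 3 of 3 oligonucleotides.

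Several of these library-total calls were lost on leaving out 1 library, which also leaves fewer libraries for the test. Without methylated replicate 1, the adjusted p was 0.0984 for SAFB, 0.161 for COX7A2L, 0.465 for chr2:109615604 and 0.0568 for chr1:944349. Without methylated replicate 2 it was 0.0943 for COX7A2L, 0.228 for chr1:944349 and 0.395 for chr12:79690223. Without unmethylated replicate 1 it was 0.422 for CNDP2 and 0.0769 for chr12:79690223.

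The pooled result was similar across the design classes of the pool. The GGAD ratio was 0.941 in the class designed around m6A sites, 0.868 in that named Unmethylated DRACN, 0.960 in permuted sequences and 0.859 in the remaining ones. Relative to oligonucleotide totals it was 0.983 to 1.03 over these classes, where that of GGAC was 2.32 to 4.86. Along the oligonucleotide, the GGAD ratio relative to oligonucleotide totals fell. It was 1.07 (1.03 to 1.10) at positions 3 to 47, 1.04 (1.00 to 1.09) at 48 to 93 and 0.957 (0.930 to 0.983) from position 94 on. The GGAD ranges of the first and last stretch did not overlap, and this difference was not tested. The GGAC ratio fell too, with 3.31 (3.07 to 3.54), 3.23 (3.04 to 3.43) and 2.97 (2.78 to 3.15) over the same stretches. The members were predicted to be more often paired than the comparison adenosines, with a median unpaired probability of 0.56 for GGAD, 0.683 for GGAC and 0.732 for other adenosines without C at +1.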

How the data were processed

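The authors deposited raw counts of crosslink positions, without normalization, per oligonucleotide, position and library, in 1 table. STAR 2.7.3a, FastQC 0.11.8 and bedtools 2.27.1 appear in the submitters' processing notes without a role. Whether duplicate reads were removed, and which genome build was used, is not given in the sources used here. If duplicates remain, counts are not independent molecules. The table's coordinates were taken as GRCh38 because 75 of 76 RefSeq promoter windows that share 31 bases with a sequence lay at them. A gene was named where exactly 1 RefSeq gene (GRCh38.p14) spans the coordinate, irrespective of strand, as for 3033 of 3488 loci. Exon and UTR annotation was not used here. Oligonucleotides spelled with U (125, with 420 members) were read like the others.

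A site was 1 position of 1 oligonucleotide. Those that reached 10 counts in 2 or more libraries were tested with edgeR 4.0.16 in R 4.3.3 (quasi-likelihood F test, TMM scaling on full library totals, two-sided, Benjamini-Hochberg adjustment over 192065 sites, threshold 0.05), checked on simulated data. A site could pass this filter through the libraries of 1 group alone, as several named rises and falls did. Standard errors are the log2 change over the root of F. Sums by 4-mer, 5-mer and 6-mer had no filter and were adjusted over all sums of that length. Fits relative to oligonucleotide totals used offsets. For single sites these were the totals, and for 4-mer and 5-mer sums the totals summed over sites. For 6-mer sums they were expected counts, from sharing out each site's counts by its oligonucleotide totals. Pooled ratios relative to oligonucleotide totals were Mantel-Haenszel ratios over sites, for each library pair. These measures can differ: GGAGG had -0.10 on the log2 scale in the 5-mer fit and a pooled ratio of 1.09. Pairing was predicted with ViennaRNA 2.7.2. Python 3.11.15 was used with scipy 1.17.1, numpy 2.4.6, pandas 2.3.3 and, for plots, matplotlib 3.10.9.

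Named sites were called GGAD sites whose groups did not overlap: the 8 largest rises with at least 1 count in each unmethylated library, the 4 largest rises with none, the 4 largest falls with at least 1 count in each methylated library, and for each of 12 GGADN 5-mers the one with the highest mean CPM. Members, rules and lists were chosen with earlier results of these data known. Alternatives were DESeq2 1.42.0, other scalings, filters, offsets, a replicate block and leaving out each library. One of the 4 places higher relative to oligonucleotide totals in several oligonucleotides is not reported here.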

Additional observations from a re-analysis of the deposited data

How the results depend on the processing

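The number of GGAD adenosines called higher (133) was 50 relative to oligonucleotide totals, 64 with DESeq2 (all 64 also called by edgeR, with 919 left without an adjusted p), 84 of 1199 with at least 50 counts in 2 libraries, 79 of 2786 among isolated adenosines refitted alone, and 66 to 161 on leaving out a library (66 without methylated replicate 1). The number called lower (190) was 17, 111, 102 and 122 in the same settings and 105 to 196 on leaving out a library (105 without methylated replicate 1 and 124 without methylated replicate 2). Pooled GGAA and GGAG kept their sign and passed in none of 14 alternatives each. Pooled GGAU (-0.05) was 0.01 for isolated adenosines (adjusted p = 0.987) and 0.01 without unmethylated replicate 1 (adjusted p = 0.935), within -0.10 to 0.01 on leaving out a library. Of the GGADN 5-mers, DESeq2 called 2 (GGAAA and GGAUU), 1 to 2 were called on leaving out a library (2 without unmethylated replicate 1, GGAUA and GGAUU), and edgeR called 0 relative to oligonucleotide totals, where 1 had an unadjusted p under the threshold. In settings added after the data were seen, edgeR called 0 for isolated adenosines relative to oligonucleotide totals (GGAUU 0.25, adjusted p = 0.0696) and 0 without the 3 leading GGAUU sequences. The isolated ratio (0.876) was 0.906 with 5 nt and 0.911 with 20 nt as the distance, and 0.860 to 0.893 on leaving out a library. GGAD against GGAC stayed between -2.03 and -1.92. The causes of these shifts were not tested, beyond fewer sites or libraries where the setting itself removes them.

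Deviations of same-numbered libraries correlated at -0.0666 over the tested sites. Counting noise at thinly covered positions can hide a shared deviation, so this value does not decide whether replicate numbers pair the libraries. The labels do not say either. With the replicate block, 144 GGAD adenosines were higher and 196 lower, pooled GGAA, GGAG and GGAU stayed at -0.07, -0.13 and -0.05, and GGAUU, at 0.35, stayed the 1 5-mer called. Depth limits the single sites, since 10767 members had no count at all, and a pooled sum can hide a gain at few of its adenosines.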
